A study of Mus musculus with 6 samples.

Results

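Capillary endothelial cells (ECs) of the whole mouse lung at embryonic day (E) 18.5 were described from 1266 single cells, of 63659 cell barcodes in the 6 libraries of the series. These cells came from 2 whole-lung libraries, 532 of the 9067 cells kept in the library labelled null and 734 of the 7448 cells kept in the library labelled control. Members were chosen on unique molecular identifier (UMI) counts that had been adjusted for free RNA with SoupX. A kept cell had at least 700 detected genes and 0.5 to 10% mitochondrial RNA. Among kept cells, ECs had 3 or more counts summed over the endothelial genes Pecam1, Cdh5 and Cldn5 and at most 2 over the collagens Col1a1 and Col3a1. Capillary cells were ECs with Gpihbp1 of at least 1 or Car4 of at least 2, with no Gja4 (a gene of arteries) or Stmn2, no Prox1 (lymphatic), and at most 1 count of the cycling genes Mki67 and Top2a. They were then split at a Car4 count of 2 into 65 Car4-high cells (38 in the library labelled null and 27 in the library labelled control) and 1201 Car4-low cells (494 and 707). Since 12 genes made this selection, the levels of those genes are given as description only.

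The capillary bed of the lung holds general capillary cells (gCap), which divide and can replenish the bed, and aerocytes (aCap). Aerocytes are large flat capillary cells that lie against the alveolar surface across which gas is exchanged. Gpihbp1 encodes the protein that anchors lipoprotein lipase to the capillary lumen and marks gCap cells, whereas Car4 encodes a membrane-bound carbonic anhydrase and marks aCap cells. CXCL12, a chemokine made by arterial endothelium and mesenchyme, acts through the receptor CXCR4 and is scavenged by the atypical receptor ACKR3.

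Both libraries were made from the lungs of E18.5 embryos carrying DsRed knocked into the first exon of Cxcl12, and each condition was 1 library. By its labels, 1 library was Cxcl12 homozygous null (Cxcl12DsRed/DsRed) and the other a Cxcl12 heterozygous control (Cxcl12DsRed/+), so both carried at least 1 DsRed allele and neither was wild type. The names of the deposited data give the opposite genotypes. Across all kept cells Cxcl12 stood at 191.5 CPM (UMIs per 1000000 UMIs; 19230 UMIs) in the library labelled null and at 1.27 CPM (96 UMIs) in the library labelled control, which goes against the labels. The libraries are therefore named by their labels only, values are given for the library labelled null first, and every library ratio below is labelled null over labelled control. Of the 2, the library that expresses Cxcl12 is thus the one labelled null. Each ratio is therefore of the library that expresses Cxcl12 over the one that nearly lacks it. No difference can be assigned to loss of Cxcl12 itself, for the reasons that follow. Each condition comprised the lungs of 2 embryos in 1 library, with no map from cells to embryos. Xist, the RNA that coats the inactive X chromosome in females, stood at 761 and 0.119 CPM over kept cells, and the Y-linked gene Ddx3y at 35.6 and 74.5 CPM, so the library labelled null held RNA of both kinds and the library labelled control nearly only the Y-linked one. Genotype, the sexes of the embryos and library cannot be told apart. The protocol text describes a sort for CD31 and DsRed for all samples, but the sample titles name a sort only for the other 4 libraries, and the whole-lung libraries held 505 and 693 epithelial and 4151 and 2898 mesenchymal cells.

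With 1 library per condition no test between conditions was possible. Levels are summed raw UMI counts over the cells of a class divided by all their UMIs, in CPM, and a summed level does not tell fewer expressing cells from less RNA per cell. All intervals are 95% intervals that cover counting error only, not differences between embryos or libraries. The libraries held 1.04e+08 and 8.56e+07 UMIs, and the capillary cells had a median of 8078 and 7592 raw UMIs. SoupX had removed 18.1 and 39.7% of all UMIs, so the adjustment was stronger in the library labelled control, and raw sums are used for levels. The selection was still read on the adjusted counts, so its Gja4 and Stmn2 condition was less strict in the library labelled control. A raw Gja4 UMI was left in 4.05% and 9.90% of Car4-low members, and a raw Stmn2 UMI in 4.45% and 7.36%. The libraries shared 140 barcodes, none of them among the capillary cells (0 of 532 and 0 of 734).

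Capillary cells made up 5.87% (exact binomial interval 5.39 to 6.37) of kept cells in the library labelled null and 9.85% (9.19 to 10.6) in the library labelled control. Of ECs, they were 19.4% (532 of 2740) and 41.7% (734 of 1762). Gpihbp1 or Car4 was present in 71.5% and 78.0% of ECs, so most of the gap arose at the next condition. Of those Gpihbp1- or Car4-positive ECs, 60.7% (1188 of 1958; 58.5 to 62.8) in the library labelled null and 32.1% (442 of 1375; 29.7 to 34.7) in the library labelled control carried Gja4, a gap junction gene of arteries, or Stmn2, a tubulin-binding protein best known from neurons, and were removed. When each EC was thinned to 2000 UMIs, Stmn2 was detected in 33.3% (31.5 to 35.1) and 18.4% (16.6 to 20.3) of ECs and Gja4 in 41.8% and 26.4%. Thinned epithelial cells, which should lack Stmn2, gave 0.992% and 0.578%, at median depths of 19442 and 15302 UMIs beside 8464.5 and 7741 UMIs in ECs. Prox1 was found in 3.22% and 3.27% of the Gpihbp1- or Car4-positive ECs.

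**Figure D1:**
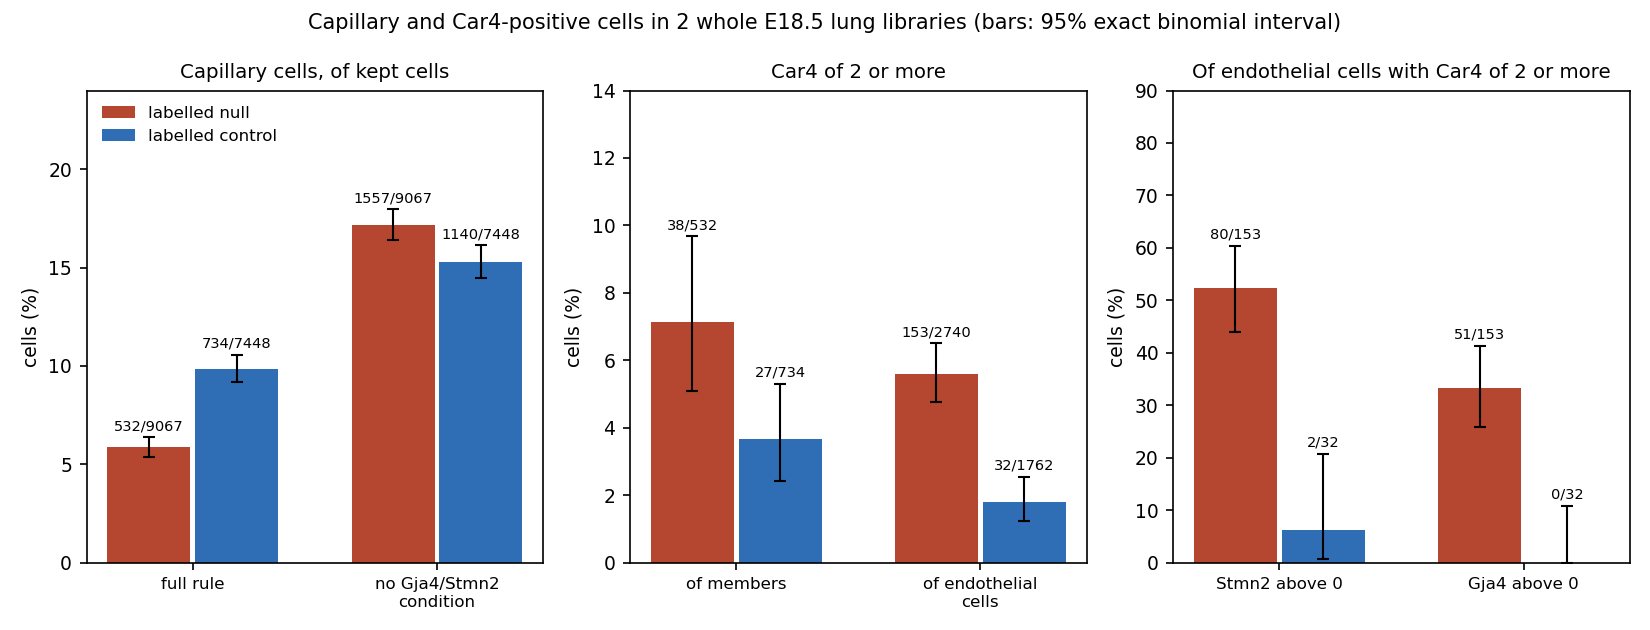
Shares in percent of cells in the library labelled null (red) and the library labelled control (blue): capillary cells among kept cells under the full rule and without the Gja4 and Stmn2 condition, cells with Car4 of at least 2 among capillary cells and among ECs, and cells with Stmn2 or Gja4 among ECs with Car4 of at least 2. Bars are exact 95% binomial intervals. Under the full rule the capillary share is 5.87% against 9.85%, and without the Gja4 and Stmn2 condition it is 17.2% against 15.3%.

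Without the Gja4 and Stmn2 condition, an alternative chosen after seeing the data, the order of the 2 libraries turned: capillary cells were 17.2% (1557 cells; 16.4 to 17.96) of kept cells in the library labelled null and 15.3% (1140 cells; 14.5 to 16.1) in the library labelled control. Of ECs they were 56.8% and 64.7%. The lower share of capillary cells among kept cells of the library labelled null thus rested on 1 condition of the selection, and ECs as a whole were 30.2% and 23.7% of kept cells. Cycling cells, removed by the rule, were 27.9% (206 of 738; 24.7 to 31.3) and 18.1% (162 of 896; 15.6 to 20.8) of the cells that met every other condition. After thinning to 2000 UMIs, at least 1 count of Mki67, a proliferation antigen, or Top2a, a topoisomerase of dividing cells, was detected in 25.5% and 18.2% of those cells. Without the Gja4 and Stmn2 condition the cycling shares were 17.8% (16.1 to 19.6) and 14.3% (12.4 to 16.3). These intervals overlapped slightly, which does not show equal shares.

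The label of capillary cells was checked against markers outside the rule. Of 8 aCap markers (Ednrb, Apln, Tbx2, Prx, Chst1, Fibin, Kdr and Emp2) the summed level was 1124 and 1277 CPM, and of 8 gCap markers (Plvap, Aplnr, Kit, Ptprb, Sema3c, Cd93, Hilpda and Tek) it was 1717 and 2053 CPM. All 16 genes were detected in both libraries. ECs with 2 or more counts of Gja4 and Stmn2 had aCap sums of 662 and 691 CPM and gCap sums of 2137 and 2550 CPM. The gCap sum was thus higher in those ECs and did not set capillary cells apart from them. Arterial markers summed to 568 and 510 CPM in capillary cells, beside 1835 and 1746 CPM in those ECs. Venous markers summed to 202 and 201 CPM in capillary cells, most of it from Ackr3. Lymphatic markers summed to 510 and 538 CPM, of which Lyve1, also found outside lymphatics in the fetal lung, gave 460 and 480 CPM. Epithelial markers summed to 114 and 123 CPM, nearly all from the surfactant gene Sftpc (104 and 105 CPM), and all 6 of them were at 0 after SoupX in both libraries. Mesenchymal markers summed to 138 and 366 CPM, immune markers to 494 and 1275 CPM, and erythroid markers to 722 and 300 CPM. Those 3 sums therefore differed between the libraries by more than 2-fold. Immune UMIs sat in few cells, with 5 or more in 8 capillary cells (1.504%) and 30 capillary cells (4.09%). A doublet caller marked 15 (2.82%) and 39 (5.31%) of the capillary cells, and all were kept.

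Car4 itself stood at 898 CPM in Car4-high and 8.83 CPM in Car4-low cells of the library labelled null, and at 673 and 4.25 CPM in the library labelled control. Gpihbp1 stood at 538 and 1214 CPM in the former and at 462 and 1075 CPM in the latter. The rule asked for Gpihbp1 in every Car4-low cell but not in Car4-high cells, so the selection made a part of this difference. The size of that part was not tested. A cut on a count gives a range and not a type. Just under it, 4 cells in each library had Car4 of 1 to under 2, and just over it 4 cells in each had Car4 of 2 to under 3. Most members had none, 459 of 532 and 685 of 734, and 21 and 16 cells had 5 or more. At the other threshold, 45 and 66 members had Gpihbp1 of 1 to under 2, and 9 and 10 members had less than 1 and entered through Car4.

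Car4-high cells were 7.14% (38 of 532; 5.10 to 9.67) of capillary cells in the library labelled null and 3.68% (27 of 734; 2.44 to 5.31) in the library labelled control. The intervals overlapped, which does not show that the shares were equal. Without the Gja4 and Stmn2 condition the shares were 8.09% (126 of 1557; 6.79 to 9.56) and 2.54% (29 of 1140; 1.71 to 3.63). Among all ECs, Car4 of at least 2 was found in 5.58% (153 cells; 4.75 to 6.51) and 1.82% (32 cells; 1.25 to 2.55). With the raw counts of these ECs thinned to 2000 UMIs each, so that Car4 was read without SoupX, the shares were 2.47% (1.92 to 3.12) and 0.625% (0.312 to 1.12). Car4-positive ECs were thus a larger share of ECs in the library labelled null than in the library labelled control, beyond counting error.

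Many Car4-positive ECs of the library labelled null carried Stmn2, as did many of its ECs in general. Of its 153 ECs with Car4 of at least 2, 80 (52.3%; 44.1 to 60.4) carried Stmn2 and 51 (33.3%; 25.9 to 41.4) carried Gja4. Of the 32 such ECs in the library labelled control 2 (6.25%; 0.766 to 20.8) carried Stmn2 and 0 carried Gja4 after SoupX (2 of them had a raw Gja4 UMI). Among all ECs, read in the same way, Stmn2 was above 0 in 45.4% and 20.2% and Gja4 in 61.4% and 37.4%. The Stmn2 intervals of Car4-positive ECs held those shares of all ECs. Read on raw counts, 2 or more Stmn2 UMIs were found in 43.2% (83 of 192; 36.1 to 50.6) and 11.6% (5 of 43; 3.89 to 25.1) of ECs with raw Car4 of at least 2, against 39.3% and 20.8% of all ECs. For 2 or more raw Gja4 UMIs the shares were 23.96% (46 of 192; 18.1 to 30.6) and 2.33% (1 of 43; 0.0589 to 12.3), against 49.6% and 30.0% of all ECs, so Gja4 was rarer in Car4-positive ECs than in ECs as a whole, beyond counting error, in each library. For Stmn2 the interval of Car4-positive ECs held the share of all ECs in each library, so it was not shown to be rarer or more frequent there. The sorted DsRed+ library of the same age was made from Cxcl12DsRed/+ lungs and never adjusted with SoupX. There 75% (633 of 844; 71.9 to 77.9) of ECs with Car4 of at least 2 carried Stmn2, here as 1 or more raw UMIs. At postnatal day 8 (P8) the sorted share was 97.4% (1733 of 1779). The share of all sorted ECs with Stmn2 was not counted. These sorted shares therefore do not show whether Stmn2 was more frequent in Car4-positive ECs. Most Car4-positive ECs of the library labelled null, and of both sorted libraries, therefore lay outside the capillary cells described here.

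The 88 non-cycling ECs of the library labelled null that had Car4 of at least 2 and met the rest of the rule except for Gja4 or Stmn2 had an aCap sum nearer to that of its Car4-high than of its Car4-low capillary cells. Their summed aCap level was 2508 CPM, beside 2777 CPM in Car4-high and 983 CPM in Car4-low cells. The gCap sum was 1120 CPM, beside 812 and 1795 CPM. Arterial markers summed to 757 CPM in these 88 cells, beside 385 CPM in Car4-high and 584 CPM in Car4-low cells. They summed to 1835 CPM in ECs of that library with 2 or more counts of Gja4 and Stmn2. Erythroid markers summed to 3649 CPM in the 88 cells, beside 10.1 CPM in Car4-high and 783 CPM in Car4-low cells. The library labelled control had 2 such cells, too few for a level.

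The difference between Car4-high and Car4-low cells was read in each library separately, for genes of at least 50 CPM on 1 side in both. Of 3213 genes, 76 were at least 2-fold higher in Car4-high cells in both libraries (2.37%) and 40 at least 2-fold lower (1.24%), while the median gene differed by 0.07 and 0.02 on the log2 scale. These 116 calls also had counting intervals that left out 0 in both libraries. The minimum level and the 2-fold limit nearly ensure this, so it adds no support. They are a description, since Car4 chose the cells and there is no replicate beyond the pair of libraries. Log2 ratios are of CPM with 0.5 CPM added.

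**Figure D2:**
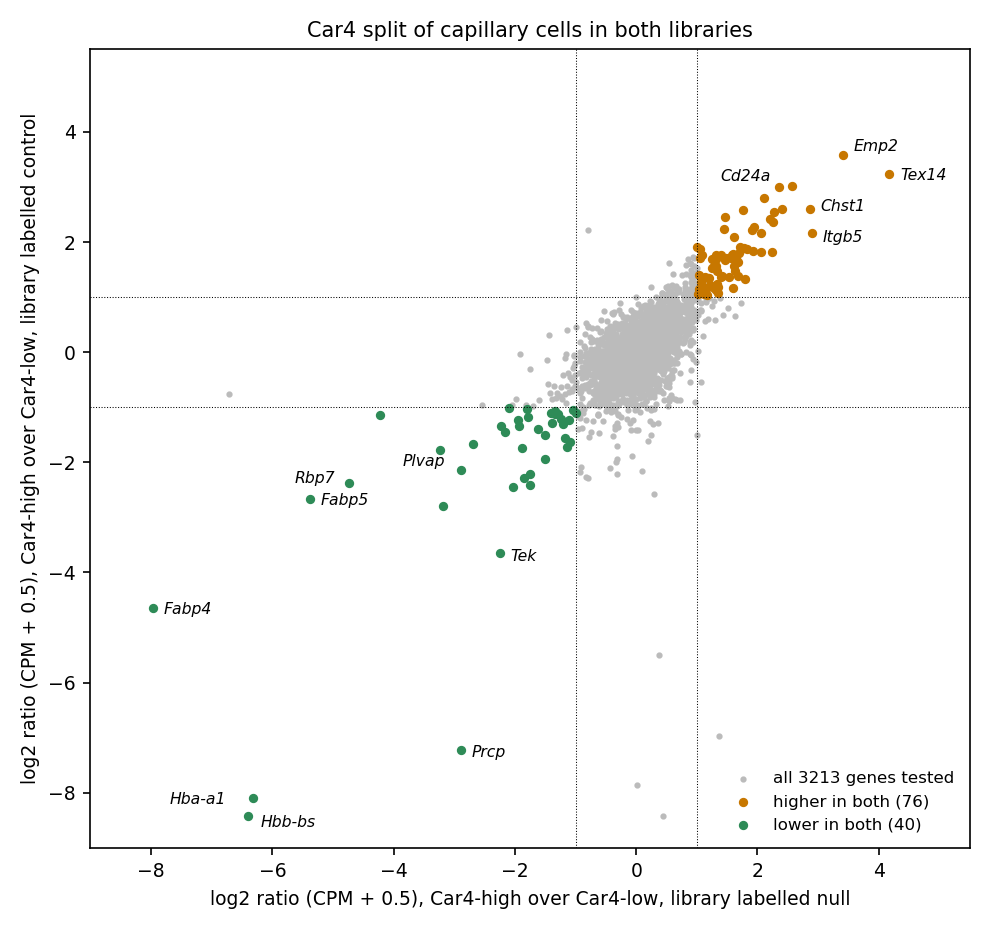
Log2 ratio of summed CPM plus 0.5, Car4-high over Car4-low capillary cells, for each gene tested in the library labelled null (x axis) and the library labelled control (y axis). The 76 genes at least 2-fold higher in both are orange and the 40 at least 2-fold lower in both are green. Emp2, Tex14 and Itgb5 lie at the upper right and Fabp4, Fabp5 and Tek at the lower left.

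The aCap markers were the group with the most calls: 6 of the 7 tested were called higher and none lower, with median log2 ratios of 2.06 and 1.81. Emp2, a 4-span membrane protein abundant in lung, stood at 367 CPM in Car4-high and 34.01 CPM in Car4-low cells of the library labelled null and at 659 and 54.6 CPM in the library labelled control. Its log2 ratios were 3.41 (3.098 to 3.766) and 3.58 (3.33 to 3.85). Tbx2, a T-box transcription factor, stood at 438 and 90.8 CPM and at 537 and 103 CPM, for ratios of 2.26 and 2.37. Ednrb, the endothelin B receptor, was 443 CPM against 167 CPM and 598 CPM against 228 CPM (1.41 and 1.39). Apln, the ligand of the apelin receptor, was 103 against 42.8 CPM and 126 against 38.4 CPM (1.26 and 1.70). Prx, a PDZ-domain scaffold protein first known from myelin, and Chst1, a carbohydrate sulfotransferase, were the remaining calls, with ratios of 2.06 and 1.81 for Prx and 2.87 and 2.60 for Chst1. Kdr, the main VEGF receptor, was 968 against 544 CPM and 1037 against 635 CPM (0.83 and 0.71), short of 2-fold, and Fibin was under the minimum.

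Of the gCap markers 5 of 7 were called lower and none higher, with median ratios of -1.39 and -1.30. Plvap, which forms the diaphragms of fenestrae and caveolae, stood at 70.4 CPM in Car4-high and 527 CPM in Car4-low cells of the library labelled null and at 143 and 633 CPM in the library labelled control, for log2 ratios of -2.89 (-3.50 to -2.37) and -2.14 (-2.62 to -1.71). Tek, the angiopoietin receptor, rested on 6 and 2 UMIs in Car4-high cells, or 15.1 and 6.80 CPM, against 73.6 and 90.7 CPM in Car4-low cells. Its ratios were -2.25 (-3.74 to -1.15) and -3.64 (-6.79 to -1.88). Aplnr, the apelin receptor, was 83.0 against 192 CPM and 84.98 against 210.2 CPM (-1.21 and -1.30), the reverse of its ligand Apln. Kit, the stem cell factor receptor, was 52.8 against 139 CPM and 57.8 against 141 CPM (-1.39 and -1.28). Kitl, which encodes its ligand and was picked here after its values were seen, went the other way at 777 against 239.6 CPM and 690.1 against 198 CPM (1.70 and 1.80). Ptprb, the endothelial receptor phosphatase that acts on TEK, was 60.4 against 231 CPM and 146 against 372 CPM (-1.93 and -1.34). Cd93 was lower by less than 2-fold (-0.89 and -0.61), Hilpda, a lipid droplet protein, was higher (0.96 and 1.56) without being called, and Sema3c was under the minimum.

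**Figure D3:**
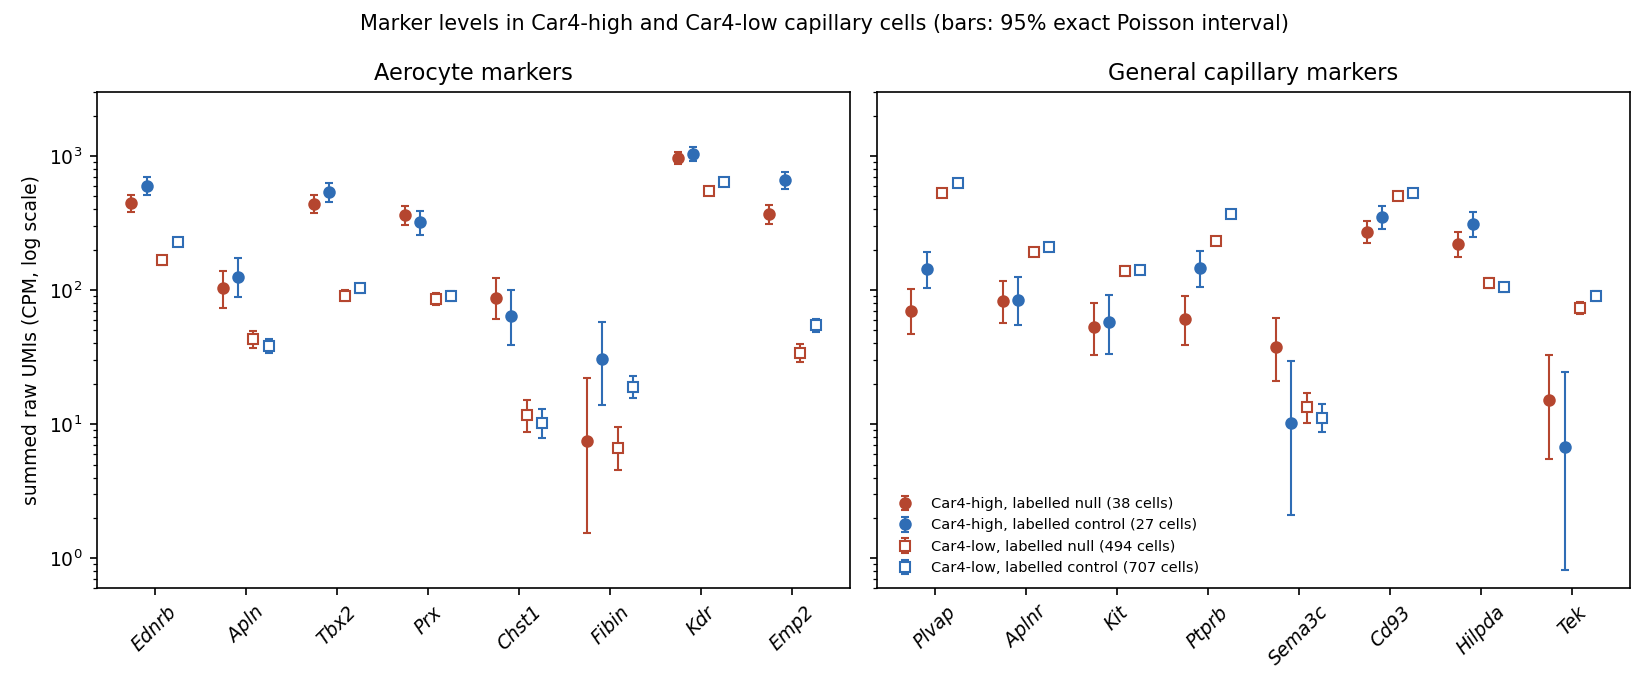
Summed raw level in CPM (log axis) of 8 aCap and 8 gCap markers in Car4-high cells (filled circles) and Car4-low cells (open squares) of the library labelled null (red) and the library labelled control (blue). Emp2, Tbx2 and Ednrb are higher in Car4-high cells in both libraries, and Plvap, Ptprb and Tek are lower. Bars are exact 95% Poisson intervals.

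The sequence before the start site is shown for Car4, which set the split, for Emp2, the aCap marker with the largest ratios, and for Tek, a gCap marker called in the other direction. Car4 lies on chromosome 11 (84957786 to 84966044, build GRCm38), Emp2 on chromosome 16 (10281749 to 10313968) and Tek on chromosome 4 (94739289 to 94874976), and each window is the 250 bases upstream of the RefSeq start on the GRCm38.p6 assembly, outside the transcript. They are chr11:84957504-84957753 on the plus strand for Car4, chr16:10313969-10314218 on the minus strand for Emp2 and chr4:94739039-94739288 on the plus strand for Tek, each written 5′ to 3′ on the gene's strand. Capitals mark the ETS letters CCGGAAG or their reverse complement.
Car4: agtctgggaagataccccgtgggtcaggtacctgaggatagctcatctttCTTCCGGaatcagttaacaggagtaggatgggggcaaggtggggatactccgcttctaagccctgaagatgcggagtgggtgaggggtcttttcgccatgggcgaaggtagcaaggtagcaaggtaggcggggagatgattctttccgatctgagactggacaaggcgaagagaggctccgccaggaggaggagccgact
Emp2: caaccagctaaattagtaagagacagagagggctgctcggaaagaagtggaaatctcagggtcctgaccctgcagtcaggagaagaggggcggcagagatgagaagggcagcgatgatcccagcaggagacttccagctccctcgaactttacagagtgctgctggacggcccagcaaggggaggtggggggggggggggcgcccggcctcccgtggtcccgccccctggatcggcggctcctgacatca
Tek: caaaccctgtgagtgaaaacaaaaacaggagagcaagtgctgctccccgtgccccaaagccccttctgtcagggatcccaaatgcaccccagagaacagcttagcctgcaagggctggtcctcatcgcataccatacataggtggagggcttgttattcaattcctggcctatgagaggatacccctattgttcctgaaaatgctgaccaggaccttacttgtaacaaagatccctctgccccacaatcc

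ETS and T-box letters were searched in such windows on both strands, the former because ETS factors act in all endothelium and the latter because Tbx2 was among the calls. Windows were found for 55 of the 76 higher and 25 of the 40 lower genes. CCGGAAG was present in 5 of the 55 (9.09%) and 0 of the 25, beside 7.83% of 27025 genes with a window. GGTGTGA, the T-box letters, was present in 1 of the 55 (1.82%) and 2 of the 25 (8%), beside 3.84% of all. The letters of the 2 motifs do not overlap.

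Apart from the marker lists, the genes named are, for each direction, the 12 whose ratios averaged largest over both libraries. Emp2, Chst1 and Tbx2 were among the 12 higher ones. Tex14, best known from the intercellular bridges of germ cells, had the largest mean ratio: 141 against 7.32 CPM in the library labelled null and 88.4 against 8.96 CPM in the library labelled control, or 4.18 (3.63 to 4.93) and 3.23 (2.57 to 3.99). Pmp22, a myelin protein of the same family as Emp2, had the highest level, at 1117 against 209.9 CPM and 1248 against 206 CPM (2.41 and 2.60). Cd24a, a GPI-anchored surface glycoprotein, was 294 against 57.3 CPM and 289 against 35.9 CPM. Itgb5, the integrin beta-5 subunit, was 171 against 22.4 CPM and 139 against 30.8 CPM. These 4 genes were thus at least 4-fold higher in Car4-high cells in each library.

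The rest of the 12 had lower levels in Car4-low cells than Pmp22 and Tbx2. Gap43, a growth cone protein, was 239 against 51.2 CPM and 190.4 against 35.4 CPM (2.21 and 2.41). Rtn1, a reticulon of the endoplasmic reticulum, was 70.4 against 15.9 CPM and 57.8 against 7.86 CPM. Gadd45b, induced by stress, was 111 against 22.6 CPM and 221 against 37.3 CPM. Tmem100, a membrane protein induced by BMP signalling in endothelium, was 231 against 67.6 CPM and 197 against 32.5 CPM (1.77 and 2.58). Fam81a was 108 against 17.9 CPM and 95.2 against 11.3 CPM. In the lists of other pathways, higher calls were Sema7a, a membrane-anchored semaphorin (1.49 and 1.70), and Adm, adrenomedullin (1.47 and 2.46).

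Among the 12 named lower genes were Fabp4 and Fabp5, which encode fatty acid-binding proteins. Fabp4 was at 2 UMIs (5.03 CPM) in the 38 Car4-high cells of the library labelled null and at 20 UMIs (68.0 CPM) in the 27 of the library labelled control, against 1382 and 1712 CPM in Car4-low cells. Its log2 ratios were -7.97 (-11.15 to -6.25) and -4.64 (-5.37 to -4.03). Fabp5 was at 7 and 43 UMIs (17.6 and 146 CPM), against 749 and 932 CPM (-5.37 and -2.67). Rbp7, a retinol-binding protein of the same superfamily, was at 1 and 5 UMIs against 80.3 and 90.6 CPM, with ratios of -4.74 (-10.30 to -2.51) and -2.38 (-4.04 to -1.18). Expression of Fabp4 was uneven among members: it was detected in 24.4% and 39.2% of capillary cells, and the 5% of cells with most UMIs (27 and 37 cells) held 72.4% and 52.2% of its UMIs. Rbp7 was detected in 16.0% and 18.1% of capillary cells, and the top 5% of cells held 78.9% and 71.4% of its UMIs. For Fabp5 the top 5% held 43.7% and 33.7%. For comparison those shares were 16.6% and 16.7% for Gpihbp1 and 22.0% and 17.8% for Plvap. The paper describes a separate EC cluster marked by Fabp4 and Fabp5, and the rule set no condition against such cells. Their part in the ratios of these 3 genes was not tested.

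The remaining lower genes had varied roles. Prcp, a lysosomal carboxypeptidase, was at 4 UMIs (10.1 CPM) against 77.9 CPM in the library labelled null. It was at 0 in the Car4-high cells of the library labelled control against 74.5 CPM, at least 7.31-fold lower with 3 counts over those cells as the floor. Gpr182, an atypical chemokine receptor of endothelium, was at 3 and 4 UMIs against 72.8 and 96.7 CPM, with ratios of -3.19 (-5.55 to -1.71) and -2.79 (-4.71 to -1.47). Socs2, an inhibitor of cytokine signalling, was at 1 and 13 UMIs, or -4.23 (-9.79 to -1.99) and -1.15 (-2.08 to -0.37). Adgrl4, an endothelial adhesion receptor, was 10.1 against 98.6 CPM and 30.6 against 106 CPM. Nrp2, a coreceptor for VEGF-C and semaphorins, was 22.6 against 77.5 CPM and 20.4 against 111 CPM. Rflnb and Fam181b had ratios of -2.03 and -2.45 and of -2.70 and -1.67. Tek and Plvap completed the 12.

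In the lists of other pathways, whose genes partly overlap with the markers, calls are to be read beside the 2.37% higher and 1.24% lower of all genes tested. Of 5 apelin and angiopoietin genes Apln was called higher and 3 lower. Of 7 integrins tested Itgb5 was called higher and Itga6 lower (-1.04 and -1.05), of 9 basement membrane genes only Hspg2, perlecan, was called (lower, -1.0005 and -1.102), and of 10 endothelial transcription factors Tbx2 was called higher and Sox7 lower (-1.17 and -1.55). Of 4 lipid uptake genes tested, the 2 called were Fabp4 and Fabp5. Adm was the call among 5 hypoxia-responsive genes, Sema7a among 9 guidance cues, Nrp2 among 5 VEGF signalling genes and Plvap among 10 caveola and junction genes. The 5 Notch, 10 BMP, 6 flow-responsive, 10 glycolysis, 18 oxidative phosphorylation, 8 MHC and interferon and 10 immediate-early genes tested gave no call in either direction. At 50 CPM in the 38 and 27 Car4-high cells a gene rests on 19.9 and 14.7 UMIs, so small differences were not detectable.

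Haemoglobin was nearly absent from Car4-high cells: Hbb-bs was at 2 UMIs (5.03 CPM) against 466 CPM in the library labelled null and at 0 against 171 CPM in the library labelled control. Its UMIs sat in few cells, and the top 5% of all members held 98.7% and 98.6% of them. A single Car4-low cell of each library held 1403 and 1004 of them. The difference in Hbb-bs therefore rests on where few cells fell, and no fold is given. Immune markers summed to 478 CPM in Car4-high and 496 CPM in Car4-low cells of the library labelled null, and to 3.40 and 1334 CPM in the library labelled control. Mesenchymal markers summed to 57.9 against 145 CPM and 333 against 367 CPM. Mgp, the 1 of them tested, was called lower in Car4-high cells, at 20.1 against 91.9 CPM and 91.8 against 251 CPM (-2.16 and -1.45). Without cells that had 2 or more raw UMIs over Ptprc, Tyrobp, Epcam, Cdh1, Pdgfra and Pdgfrb, the split gave 78 higher and 53 lower genes. Of these, 68 were among the first 76 and 37 among the first 40. That filter held no erythroid gene, and the part of these cell types in the split was not tested further.

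Marker levels were also read along raw Car4 counts of 0, 1, 2 to 3 and 4 or more UMIs, in 457, 33, 8 and 34 cells of the library labelled null and 685, 17, 8 and 24 cells of the library labelled control. The aCap sum was 918, 1614, 2314 and 2762 CPM in the former and 1146, 2001, 2302 and 3568 CPM in the latter. The gCap sum was 1836, 1413, 957 and 812 CPM and 2105, 1930.5, 1369 and 1127 CPM. In each library cells with 4 or more Car4 UMIs had the higher aCap and the lower gCap sum beside cells with none, with exact Poisson intervals that did not overlap. Neighbouring ranges were less distinct: in the library labelled null the intervals of the upper 2 ranges overlapped for both sums, and in the library labelled control those of 1 and 2 to 3 UMIs for the aCap sum, and of 0 and 1 and of the upper 2 ranges for the gCap sum. Emp2 went from 25.6 to 123, 194 and 372 CPM and from 49.8 to 168, 286 and 714 CPM.

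**Figure D4:**
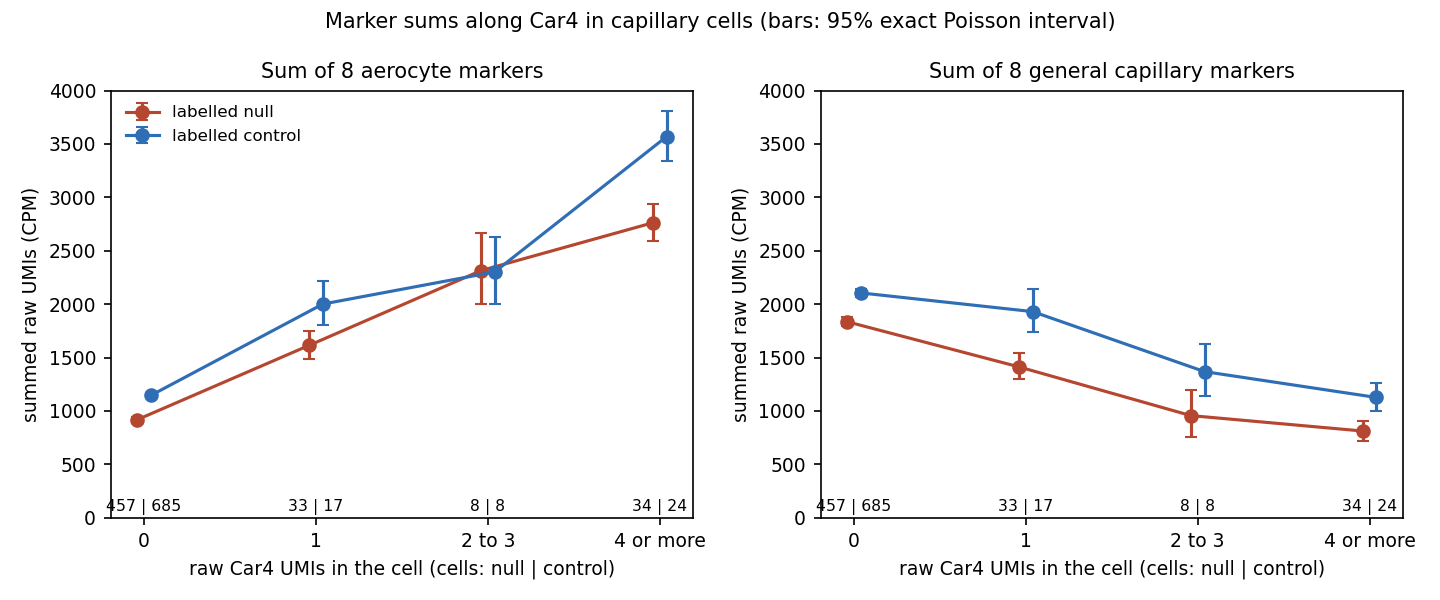
Summed level in CPM of the 8 aCap and the 8 gCap markers in capillary cells grouped by raw Car4 UMIs (0, 1, 2 to 3, 4 or more), in the library labelled null (red) and the library labelled control (blue). The aCap sum goes from 918 to 2762 CPM and from 1146 to 3568 CPM, and the gCap sum from 1836 to 812 CPM and from 2105 to 1127 CPM.

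The same rule, applied to raw counts of the sorted DsRed+ ECs of Cxcl12DsRed/+ lungs, gave 877 capillary cells at E18.5, of which 140 were Car4-high (16.0%; 13.6 to 18.6), and 102 at P8, of which 29 were Car4-high (28.4%; 19.9 to 38.2). Each sorted library pooled several lungs, and its cells were not used to choose the genes. In the E18.5 sorted library 2.76% of 3077 genes were at least 2-fold higher and 1.69% at least 2-fold lower in Car4-high cells. Of the 76 genes higher in whole lungs 73 reached the minimum there, 57 were at least 2-fold higher and all 73 were higher, with a median log2 ratio of 1.31. Of the 40 lower genes 36 reached the minimum, 22 were at least 2-fold lower and 35 were lower, with a median of -1.24. Emp2 (3.13), Itgb5 (3.14), Chst1 (2.52) and Tex14 (2.50) were among the higher ones, and Fabp5 (-2.73), Nrp2 (-2.17) and Fabp4 (-1.73) among the lower ones. At P8, where the 29 Car4-high cells held 144152 UMIs, 4.46% of 2979 genes were at least 2-fold higher and 5.04% at least 2-fold lower. There 38 of 62 of the higher genes were at least 2-fold higher and 58 were higher, while 10 of 33 of the lower genes were at least 2-fold lower and 26 were lower. Fabp4 had the opposite sign at P8 (2.28). Ednrb had the ratio 2.06 at E18.5 and 4.49 at P8.

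Cxcl12 itself was low in capillary cells of either library. It gave 82 UMIs (16.3 CPM) in the library labelled null and 1 UMI (0.150 CPM) in the library labelled control, and 27 cells held 93.9% of the UMIs of the former. In Car4-low cells thinned to 2000 UMIs, Cxcl12 was detected in 2.02% (0.975 to 3.69) of 494 cells and in 0 of 707 cells, which allows up to 0.424%. Unthinned, the shares were 6.07% and 0.141%. Thinned epithelial cells, which should lack it, gave 0.595% (0.123 to 1.73) and 0 of 692, which allows up to 0.434%, so the intervals of capillary and epithelial cells overlapped in the library labelled null. Among ECs with 2 or more counts of Gja4 and Stmn2 it was detected in 54.5% and 3.92%.

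Cxcr4 gave 118 UMIs (23.4 CPM) and 259 UMIs (38.9 CPM) in capillary cells, a log2 ratio of -0.72 (-1.06 to -0.41), and it was too low to be called. Thinned Car4-low cells carried it in 4.25% (2.65 to 6.42) and 8.49% (6.54 to 10.8), epithelial cells in 0.595% and 0.723%, and ECs with 2 or more counts of Gja4 and Stmn2 in 19.3% and 18.9%. Without the Gja4 and Stmn2 condition the sign turned, to 0.20. Within capillary cells Cxcr4 stood at 10.1 CPM (4 UMIs) in Car4-high against 24.5 CPM in Car4-low cells and at 30.6 CPM (9 UMIs) against 39.3 CPM. The log2 ratios were -1.25 (-3.19 to 0.11) and -0.36 (-1.51 to 0.59), so no difference was detectable at this depth in either library.

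Ackr3, the scavenging receptor, gave 698 UMIs (138 CPM) and 754 UMIs (113 CPM), for a ratio of 0.29 (0.14 to 0.44). It was -0.08 with SoupX-adjusted sums and -0.16 without the Gja4 and Stmn2 condition, so no direction could be given. Thinned Car4-low cells carried Ackr3 in 24.3% and 18.2%, beside 8.91% and 9.22% of ECs with 2 or more counts of Gja4 and Stmn2. Thinned epithelial cells gave 0.397% and 0.578%. Car4-high cells had 106 CPM against 141 CPM in Car4-low cells, and 54.4 CPM against 116 CPM (-0.42 and -1.09). In each library the share with Ackr3 was thus higher in Car4-low capillary cells than in the ECs with 2 or more counts of Gja4 and Stmn2.

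Between the libraries, 3266 genes of at least 50 CPM in 1 of them were compared over all capillary cells. Of these 17 were at least 1.5-fold higher in the library labelled null (0.521%) and 54 at least 1.5-fold lower (1.65%), and the median gene was at 0.01. With SoupX-adjusted sums 191 genes were higher and 183 lower, so the excess of lower genes and the counts themselves depended on the adjustment. The sex-linked genes Xist (higher), Ddx3y and Eif2s3y (both lower) were among the calls. All 71 had counting intervals off 0, which the minimum level and the 1.5-fold limit ensure at these totals. The same sign in Car4-high cells, in Car4-low cells and with SoupX-adjusted sums was found for 15 of the 17 and 33 of the 54. Markers of other cell types moved with this comparison: all 5 tested immune genes were among the lower calls, all 3 tested erythroid genes among the higher ones, and the mesenchymal marker Mgp among the lower ones. The immune gene Lyz2, for example, stood at 328 and 864 CPM and S100a8 at 39.9 and 163 CPM, while Hbb-bs stood at 429.5 and 164 CPM. A single capillary cell of each library held 1403 and 1004 of the Hbb-bs UMIs, so that difference rests on few cells. The comparison was therefore repeated without the 15 and 55 cells that had 2 or more raw UMIs over 6 genes of other cell types (Ptprc, Tyrobp, Epcam, Cdh1, Pdgfra and Pdgfrb). That left 17 higher genes, 14 of them among the first 17, and 28 lower genes, 20 of them among the first 54. In mesenchymal cells of the same libraries 7 of the 17 were also at least 1.5-fold higher and 9 of the 54 at least 1.5-fold lower. The share of all genes past 1.5-fold in mesenchymal cells was not counted, so these counts cannot be read as sharing between cell types. Values without the cells that carried other markers are called filtered in what follows.

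**Figure D5:**
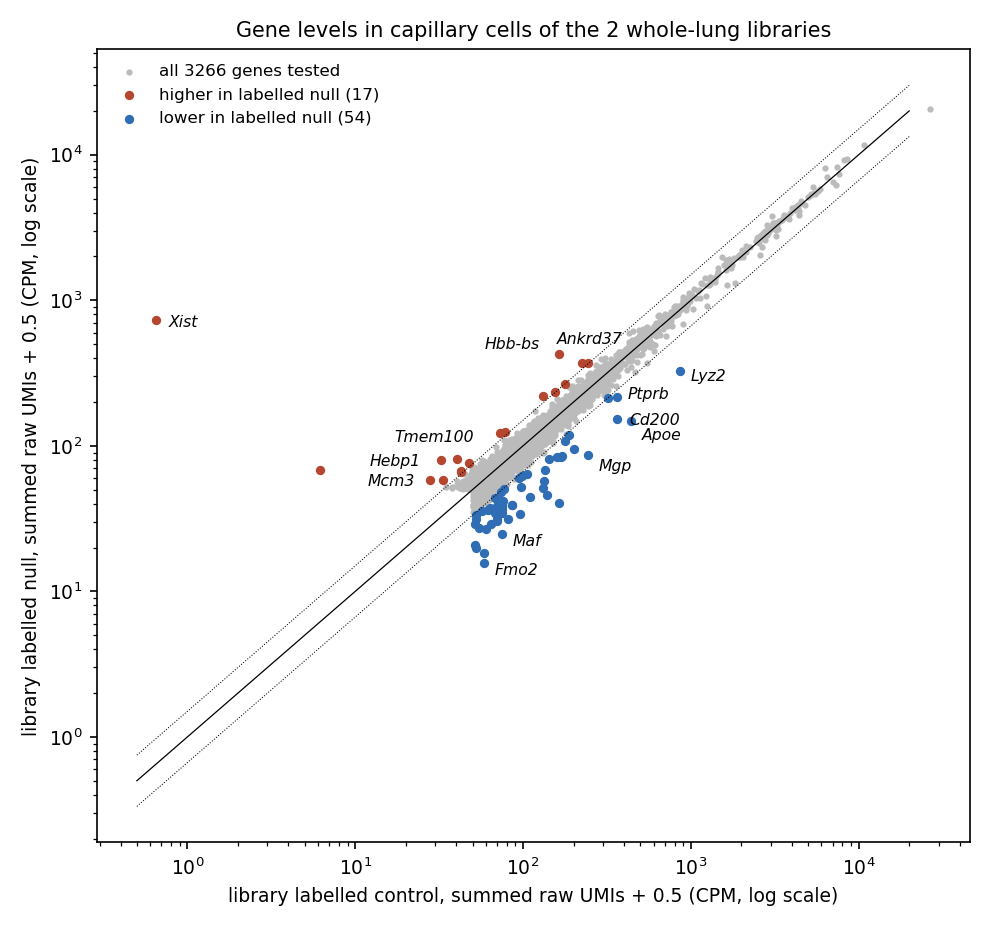
Summed level plus 0.5 in CPM (log axes) of each gene tested in capillary cells of the library labelled control (x axis) and the library labelled null (y axis). The 17 genes at least 1.5-fold higher in the library labelled null are red and the 54 at least 1.5-fold lower are blue. The solid line marks equal levels and the dotted lines 1.5-fold. Cd200, Maf and Ptprb lie below the lines and Tmem100, Ankrd37 and Hebp1 above them.

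The 10 named genes higher in the library labelled null included 3 that were also called higher in the Car4 comparison, Tmem100, Cd24a and Gap43. Tmem100 stood at 80.5 and 39.8 CPM (log2 ratio 1.01, 0.79 to 1.24; 0.97 filtered), with 1.04 within Car4-low and 0.23 within Car4-high cells. In ECs with 2 or more counts of Gja4 and Stmn2 its ratio was -0.05. Ankrd37, induced by hypoxia, stood at 373 and 225 CPM (0.73, 0.63 to 0.83; 0.63 filtered), with 0.63 in ECs with 2 or more counts of Gja4 and Stmn2. Cd24a stood at 76.0 and 47.0 CPM (0.69; 0.72 filtered), with 0.67 within Car4-low and 0.03 within Car4-high cells.

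The other higher genes were of mixed kinds. Hebp1, a haem-binding protein, stood at 79.3 and 31.9 CPM (1.30; 2.75 filtered), and Mcm3, a subunit of the replicative helicase, at 57.7 and 27.5 CPM (1.06 with and without the filter). Ier3, an immediate-early gene of stress responses, stood at 372 and 244 CPM (0.61; 0.65 filtered). Pde4b, a cAMP phosphodiesterase, stood at 235 and 154 CPM (0.61; 0.52 filtered). Bok, of the BCL2 family, and Bhlhe40, a transcription factor, had ratios of 0.78 and 0.65. Gap43 stood at 66.0 and 42.2 CPM (0.64), and its ratio in ECs with 2 or more counts of Gja4 and Stmn2 was 1.33. Bhlhe40 fell under 1.5-fold without the Gja4 and Stmn2 condition (0.49), as did Bok (0.48). Gap43 and Pde4b were under 1.5-fold when filtered (0.54 and 0.52).

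Of the 10 named genes lower in the library labelled null, 5 remained at least 1.5-fold lower when filtered. Cd200, a surface glycoprotein whose receptor restrains myeloid cells, stood at 153 and 361 CPM (-1.23, -1.35 to -1.12; -1.33 filtered). Maf, a transcription factor, stood at 24.4 and 74.2 CPM (-1.59, -1.90 to -1.32; -1.48 filtered). Both were also lower in ECs with 2 or more counts of Gja4 and Stmn2, by -1.46 and -1.33. Fmo1, a flavin-containing monooxygenase, stood at 26.97 and 54.3 CPM (-0.995; -1.03 filtered), and fell under 1.5-fold without the Gja4 and Stmn2 condition (-0.55). Enpp2, autotaxin, stood at 20.4 and 50.9 CPM (-1.30; -0.66 filtered). Zeb2, a zinc-finger transcription factor, stood at 84.3 and 169.7 CPM (-1.01; -0.63 filtered).

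The other 5 lower genes lost the call when filtered. Apoe, a lipid carrier of macrophages, stood at 148 and 439 CPM, and its log2 ratio went from -1.57 to -0.35. Mgp, a matrix protein of mesenchyme and vessel walls, went from -1.49 to -0.15, Fmo2 from -1.90 to -0.41 and Fn1, fibronectin, from -1.34 to -0.54. Acta2, smooth muscle actin, changed sign, from -1.40 to 1.10, and 193 of its UMIs in the library labelled control were in Car4-high cells. The highest 5% of capillary cells held 75.4% and 83.5% of the UMIs of Apoe and 60.7% and 87.2% of those of Mgp. Without the cells that carried markers of other cell types, 4 of the 5 were thus under 1.5-fold and Acta2 was past it in the opposite direction.

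Calls in the pathway lists between the libraries are to be read beside the 0.521% higher and 1.65% lower of all genes, and the 0 to 2 calls in a list describe single genes and not a pathway. Glycolysis genes were higher in the library labelled null in 10 of 10 tested, by a median of 0.21 on the log2 scale (0.23 with SoupX-adjusted sums), but none reached 1.5-fold. Pgk1 had the largest of these ratios among the genes named (173 and 117 CPM, 0.56), followed by Pkm (616 and 498 CPM, 0.30), Ldha (425 and 366 CPM, 0.22) and Gapdh (1064 and 978 CPM, 0.12). All 15 genes of the glycolysis list summed to 4003 and 3518 CPM in capillary cells. In ECs with 2 or more counts of Gja4 and Stmn2 they summed to 3794 and 3358 CPM, so the shift was not particular to capillary cells. Oxidative phosphorylation genes were higher in 15 of 18 by a median of 0.09. The 3 cell cycle genes tested were all higher (median 0.43), of which Mcm3 was called, in cells from which the rule had removed those with more than 1 count of Mki67 and Top2a. Apart from Mcm3 none of the genes in these 3 lists reached 1.5-fold, and the shifts had no replicate.

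The lists of vascular signalling are given with the same limit. Of 5 VEGF signalling genes none was higher, with a median of -0.18 (-0.60 with SoupX-adjusted sums). Of 9 guidance cues none was higher either, with a median of -0.20 (-0.59 with SoupX-adjusted sums). Among gCap markers Ptprb was called lower, at 218 and 362 CPM (-0.73; -0.79 filtered), but its ratio was -0.23 without the Gja4 and Stmn2 condition. Among the 5 aCap markers tested none was called (median -0.18). Of 4 lipid uptake genes Lpl, lipoprotein lipase, was called lower (61.9 and 98.0 CPM, -0.66), but not when filtered (-0.31). Id2, a BMP target, was lower at 47.8 and 73.8 CPM (-0.62). Of 8 fetal growth genes Peg3 was called higher (123 and 72.4 CPM, 0.76) and H19 lower (37.9 and 74.4 CPM, -0.96; -0.48 filtered). Caveola and junction genes had a median of 0.07, and of -0.25 with SoupX-adjusted sums. The lists of immediate-early and of glucocorticoid-responsive genes had medians of -0.12 and -0.04 in raw counts and of 0.57 and 1.23 with SoupX-adjusted sums, so the direction of these 3 lists depended on the adjustment.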

How the data were processed

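Whole E18.5 lungs were dissociated with collagenase, dispase and DNase, and single-cell libraries were made with the 10x 3′ v3 chemistry. The authors aligned reads to mm10 with CellRanger Count 3.1 (3.1.0 in the matrix headers) and deposited raw UMI counts for the cells it called. The authors also deposited estimated counts, in which free RNA had been removed with SoupX from the levels of genes chosen by them, and from which Gm42418 had been left out. The selection rule was read on these estimated counts (not rounded), with the 0.5 to 10% mitochondrial and 700-gene limits of the methods. Levels are sums of raw counts without Gm42418, which took 0.485 and 0.381% of UMIs. No deposited annotation of cells was used.

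The members, gene lists and rules were chosen with earlier results of these data known. The Car4 comparison called genes of at least 50 CPM at 2-fold in both libraries, and the library comparison at 1.5-fold, with 0.5 CPM added. For each direction, named genes were the 12 whose ratios averaged largest in the Car4 comparison, where the SoupX sums agreed in direction, and the 10 farthest from 0 between the libraries, where Car4-high cells, Car4-low cells and SoupX sums agreed in sign. Genes of the rule, haemoglobin, mitochondrial, ribosomal and sex-linked genes were left out of both. Added to these were Cxcl12, Cxcr4, Ackr3 and members of 31 lists (300 genes). Intervals are 95% intervals, exact binomial for shares (Clopper-Pearson) and exact conditional binomial for ratios. A count of 0 was taken to allow up to 3 counts. Doublets were marked with Scrublet (scanpy 1.11.5) and kept. Epithelial cells had Epcam and Cdh1 of at least 2 and mesenchymal cells Col1a1 and Col3a1 of at least 5 in sum. Gene coordinates come from GENCODE and upstream windows from RefSeq. Python 3.11.15, numpy 2.4.6, scipy 1.17.1, pandas 2.3.3 and matplotlib 3.10.9 were used, and the calling steps were tested on simulated data. The simulated sums held counting error only, so that test does not cover genes whose UMIs sit in few cells. Alternatives were another Car4 limit, the rule on raw counts, no lower mitochondrial limit, at least 1000 genes, other minimum levels, added CPM and folds, median centring, means of cells, SoupX sums, thinning, and removal of doublets and of cells with markers of other types.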

Additional observations from a re-analysis of the deposited data

How the results depend on the processing

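No paired analysis was possible because each condition had 1 library, and for the same reason no replicate could be left out. Of 82 values recomputed under an alternative, 61 kept within the counting interval or within 1.5 times the count. For gene lists this compares their length and not their members. Without the Gja4 and Stmn2 condition, 57 of the 76 higher and 24 of the 40 lower genes of the Car4 comparison were called again. Between the libraries it was 13 of the 17 and 31 of the 54. The limit of at least 1000 genes left the same 532 and 734 members, so the values unchanged under it add no support. With the rule on raw counts the capillary share of the library labelled control was 8.26%. Without cells carrying markers of other types, in numerator and denominator, the shares were 13.3% of 3875 and 23.7% of 2860 kept cells, and 28 genes were lower in the library labelled null. Thinning to 2000 UMIs gave Car4-high shares of 3.37% and 1.499%. SoupX sums gave 191 higher and 183 lower genes between the libraries, 13 and 41 of them among those called on raw counts. A minimum of 10 CPM gave 168 and 195 genes in the Car4 comparison and 96 and 391 between the libraries, and no minimum gave 317 and 1286, and 796 and 2099, since more genes were tested. A 2-fold limit left 6 higher and 27 lower genes between the libraries. Without the Gja4 and Stmn2 condition, chosen after seeing the data, the shares were 17.2% and 15.3% and 31 genes were higher. Except where construction shows it, the cause was not tested. Depth limits what can be read in the Car4-high cells, which held 397562 and 294180 UMIs in all.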

Other observations

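Further genes called in the Car4 comparison were picked after their values were seen. Slc12a2, a sodium, potassium and chloride cotransporter, stood at 518 CPM in Car4-high and 165 CPM in Car4-low cells of the library labelled null and at 707.1 and 217 CPM in the library labelled control, and its log2 ratio in the E18.5 sorted library was 1.62. Hpgd, which inactivates prostaglandins, was 146 against 38.5 CPM and 112 against 23.7 CPM (1.91 and 2.22). Ackr2, a scavenging receptor of inflammatory CC chemokines, was 141 against 36.2 CPM and 187 against 38.2 CPM, with 1.75 in the E18.5 sorted library. Hopx, a homeodomain protein also found in alveolar epithelium, was 236 against 62.2 CPM and 269 against 75.0 CPM, and its ratios in the sorted libraries were 1.89 at E18.5 and 2.05 at P8. Cdkn1a, an inhibitor of the cell cycle, was 221 against 76.6 CPM and 289 against 112 CPM (1.52 and 1.37). In the other direction Rgcc, a regulator of the cell cycle, was 264 against 811 CPM and 258 against 682 CPM (-1.62 and -1.40), and Clec14a, an endothelial lectin-like receptor, was lower by the ratios -1.10 and -1.23. Tm4sf1 was also lower, with -2.10 and -1.02.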
